A study of Mus musculus with 20 samples.

Results

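The glucuronidation enzymes and the enzymes that supply their co-substrate were followed here in mouse liver under phenobarbital, through 10 genes: Ugt1a1, Ugt2a3, Ugt2b1, Ugt2b5, Ugt2b34, Ugt2b35, Ugt2b36, Ugt3a2, Ugdh and Ugp2. The genes were chosen with earlier results of these data known. Their probe sets were taken by gene symbol, as every probe set that the platform annotation assigned to one of these symbols. Probe sets listed with several Ugt1a genes were included. This gave 17 probe sets of the 45037 on the array, against 18193 genes that the array represents with a symbol of their own. Of these, 3 probe sets measured Ugt1a, 5 measured Ugp2, 2 measured Ugt2b34 and each remaining gene had 1. All 17 passed the filter on low values. The 3 Ugt1a probe sets each list 8 genes of that cluster, so the level of Ugt1a1 cannot be told apart from that of its neighbours and is given below as Ugt1a.

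RNA was taken from the livers of 20 male mice of the outbred CD-1 stock, each measured on 1 Affymetrix 3' expression array. Phenobarbital sodium (PB) at 80 mg/kg/day was given by mouth every day for 28 or 90 days, and the control mice received only the methylcellulose vehicle (CMC) for the same time. The 4 groups (CMC 28 days, PB 28 days, CMC 90 days, PB 90 days) held 5 mice each. Tissue was the left lateral lobe, taken on the day after the last dose; age was not given in the sources used here, and only males and 1 dose were studied. Values are deposited log2 intensities, so a difference of 1 is a doubling of signal, and all differences are PB minus CMC unless stated. PB and CMC arrays were compared in a linear model with limma, and a probe set was called at an adjusted p under 0.05 (Benjamini-Hochberg, over 35662 probe sets).

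Glucuronidation makes drugs, bilirubin, bile acids and steroids water soluble, so that they can leave the body in bile and urine. UDP-glucuronosyltransferases (UGTs) of the endoplasmic reticulum carry out the transfer, and hepatocytes hold much of the activity. The donor is made in the cytosol: Ugp2 joins UTP and glucose 1-phosphate to UDP-glucose, which also feeds glycogen, and Ugdh oxidises UDP-glucose to UDP-glucuronate. Phenobarbital, long used against seizures, switches on the constitutive androstane receptor (Nr1i3) of hepatocytes and through it genes of drug metabolism, and UGT genes are among the targets described for this receptor. Several UGT genes also depend on hepatocyte nuclear factors such as HNF1 alpha, which binds a palindrome of the type GTTAAT separated by 1 base from its mirror image.

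The stretch just upstream of the start is shown for the 7 UGT genes with an entry that held a motif, because all 5 Ugt2b genes studied share a motif there, which is set beside their values below. Each sequence is the 120 bases before the RefSeq start of the gene, 5' to 3' along the gene's strand, on GRCm38.p6. Capitals mark matches to GTTANNNNTTAAC (a spaced pair that resembles the HNF1 palindrome), to GTTAAT, a single element of that palindrome, where the pair is absent, and to AGGTCA (a half-site of nuclear receptors).
Ugt1a1 (chr1:88211839-88211958, plus strand): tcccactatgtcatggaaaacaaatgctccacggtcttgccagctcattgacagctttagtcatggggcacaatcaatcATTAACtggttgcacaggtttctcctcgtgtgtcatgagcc
Ugt2a3 (chr5:87337196-87337315, minus strand): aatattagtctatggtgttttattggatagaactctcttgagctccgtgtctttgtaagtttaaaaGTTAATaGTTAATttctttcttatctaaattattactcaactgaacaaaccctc
Ugt2b34 (chr5:86906938-86907057, minus strand): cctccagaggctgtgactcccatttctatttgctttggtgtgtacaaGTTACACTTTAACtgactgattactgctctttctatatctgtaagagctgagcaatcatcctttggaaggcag
Ugt2b1 (chr5:86926504-86926623, minus strand): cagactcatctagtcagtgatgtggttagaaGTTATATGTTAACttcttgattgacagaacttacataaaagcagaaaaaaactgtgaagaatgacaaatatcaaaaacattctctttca
Ugt2b35 (chr5:87000740-87000859, plus strand): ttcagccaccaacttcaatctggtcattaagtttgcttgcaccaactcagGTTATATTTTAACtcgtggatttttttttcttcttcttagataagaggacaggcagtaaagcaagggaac
Ugt2b36 (chr5:87092556-87092675, minus strand): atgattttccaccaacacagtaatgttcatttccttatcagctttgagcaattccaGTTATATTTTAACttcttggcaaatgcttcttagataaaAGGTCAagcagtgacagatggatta
Ugt2b5 (chr5:87140341-87140460, minus strand): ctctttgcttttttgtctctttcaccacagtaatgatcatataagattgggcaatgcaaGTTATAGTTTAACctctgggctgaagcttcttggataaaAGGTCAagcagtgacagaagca

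The spaced pair GTTANNNNTTAAC, searched on both strands, occurred in each of the 5 Ugt2b genes studied, and in 37 of 32851 promoter stretches of the same length (0.113%). It was chosen after the sequences had been seen. It lay at bases -89 to -77 in Ugt2b1, -61 to -49 in Ugt2b5, -73 to -61 in Ugt2b34, -70 to -58 in Ugt2b35 and -64 to -52 in Ugt2b36, counted back from the start. The single element GTTAAT, present in 3% of stretches, occurred once in Ugt1a1 on the reverse strand (-41 to -36) and at 2 places in Ugt2a3 (-54 to -49 and -47 to -42). AGGTCA, present in 6.91% of stretches, lay in Ugt2b5 (-22 to -17) and Ugt2b36 (-25 to -20), whose stretches were also the most alike, with 89 of 120 bases (74.2%) the same when gaps were allowed. The next pair, Ugt2b35 and Ugt2b36, shared 76 bases (63.3%). A second receptor half-site, AGTTCA (5.14% of stretches), matched none of the 9 members with an entry, and the entries of Ugdh and Ugp2 held none of the 4 motifs in this window. The matches are letters and not measured binding. On the chromosome, Ugt2b34, Ugt2b1, Ugt2b35, Ugt2b36 and Ugt2b5 follow each other in this order, and Ugt2b37 lies between Ugt2b5 and Ugt2a3.

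The treatment itself was plain on these arrays. Cyp2b10 is the cytochrome P450 that serves as the standard reporter of the constitutive androstane receptor. It rose by 4.90 ± 0.62 log2 units (SE) at 28 days and by 5.88 ± 0.62 at 90 days. Cyp2c55 and the carboxylesterase Ces2a were also called at both times. A further check gene, Cyp3a11, was not called (14.77 under CMC and 14.88 under PB at 28 days, 14.70 and 14.86 at 90 days). Its unadjusted p by limma was under 0.05 at 90 days and over both durations, with SDs of 0.04 to 0.08 within groups. In all, 12 of 35662 probe sets (0.0336%) were called at 28 days and 23 (0.0645%) at 90 days, all higher under PB. For the mean of the effects at both durations, called "over both durations" below, 44 (0.123%) were called. A pair of arrays stood apart. On the first principal component, which held 51.0% of the variance, PB 28 days replicate 5 scored -149.4 and PB 90 days replicate 3 scored -94.4, against -56.7 for the next. Cyp2b10 was also lowest in its group on these arrays (9.03 and 10.54, where the other PB arrays read 10.81 or more). Ces2a was lowest too (13.42 and 13.74), but Cyp2c55 was not: it read 12.07, the highest of its group, and 11.83. The mean of the 5 hepatocyte markers above the array's lower quartile was lowest of all on PB 28 days replicate 5 (9.14 log2 units). That quartile was itself the highest there (4.26), and the SD of the markers within this group ran from 0.04 (Ttr) to 1.13 (Tat). Many results that turn on these arrays are given with and without them, but not all.

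None of the 17 probe sets was called in any comparison, by limma with adjustment over all probe sets. At 28 days 15 of 17 differences were above 0, with a median of 0.18 and a range from -0.14 to 0.36, where the median of all probe sets was 0.0065. At 90 days 14 of 17 were above 0, with a median of 0.19 and a range from -0.24 to 0.58 (all probe sets, 0.02). Over both durations 15 of 17 were above 0, with a median of 0.14 (all probe sets, 0.019, of which 54.9% were above 0). These medians count the 3 Ugt1a and 5 Ugp2 sets singly. With the brightest probe set standing for each gene, 8 of 10 genes were above 0 at 28 days, at 90 days and over both, with medians of 0.0999, 0.089 and 0.092. The smallest adjusted p of a member was 0.9999 at 28 days, 0.845 at 90 days and 0.7498 over both. An unadjusted p under 0.05 was reached by 0 of 17 at 28 days (2.82% of all probe sets), 2 at 90 days (4.43%) and 8 over both durations (6.16%). Without PB 90 days replicate 3 the count at 90 days was 0, and without PB 28 days replicate 5 the count at 28 days was 4. Without both arrays the counts were 4, 2 and 6, and the last of these held the 3 Ugt1a sets and no Ugp2 set. The count over both durations was 3 without PB 90 days replicate 3, and ran from 3 to 9 on removal of any 1 array. The 8 sets belong to only 3 genes, Ugt2b1, Ugt2b34 and Ugp2, and probe sets of 1 gene are not independent. PB and CMC arrays were completely apart for 0 members at 28 days (0.578% of all probe sets) and 0 at 90 days (0.984%).

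The arrays set a limit on the change in signal that could have been missed. The 95% confidence intervals reached no more than a 1.94-fold higher signal at 28 days, 2.27-fold at 90 days and 1.86-fold over both durations for any member. Toward lower signal they reached no more than 1.42-fold, 1.52-fold and 1.36-fold. The upper bounds were those of Ugp2, the most variable member. Members read between 8.90 and 14.37, and the brightest probe set of each array between 15.28 and 15.34. Whether the brightest members follow their transcripts in full was not tested. For Ugt1a the bounds hold for the pooled signal of 8 genes and not for Ugt1a1 alone.

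**Figure D1:**
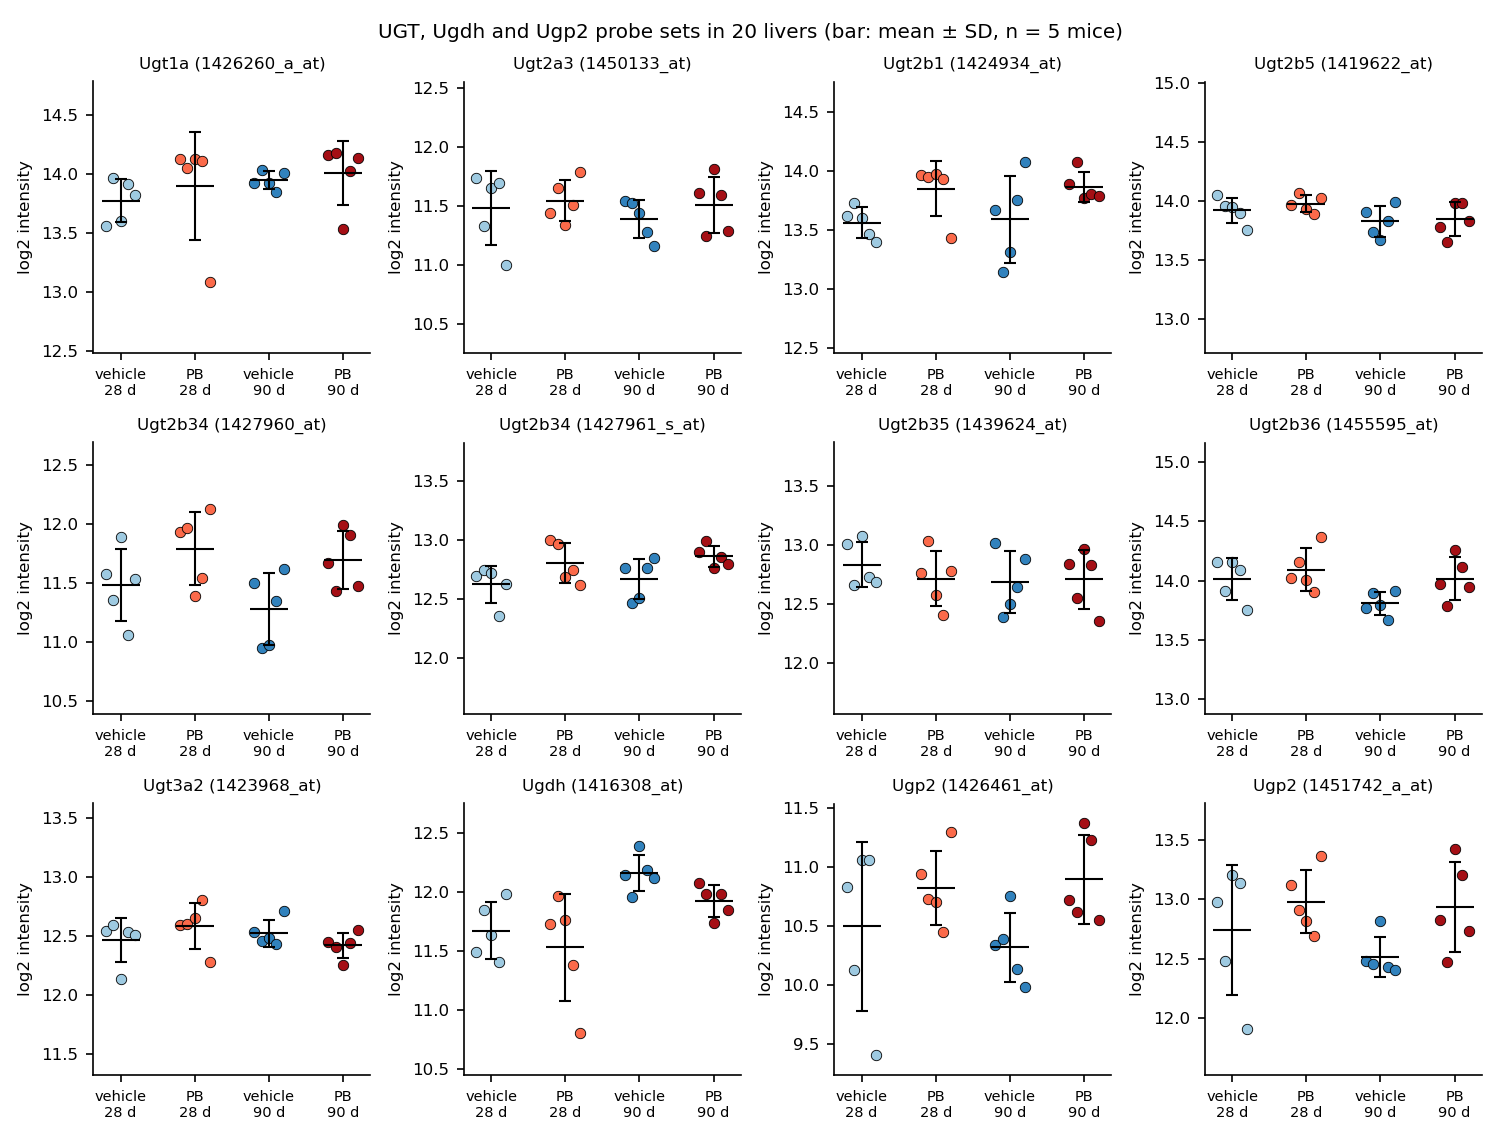
Log2 intensity (vertical axis) of 12 of the 17 probe sets on each of 20 arrays, by group (horizontal axis); points are mice, the long bar is the mean and the whiskers ± SD (n = 5). PB and CMC points overlap in every panel, and Ugt1a has 1 low point in each PB group. The means of Ugdh are higher at 90 days than at 28 days, with points that overlap.

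The UGT1A enzymes conjugate bilirubin, many phenols and drugs, and Ugt1a1 is the bilirubin enzyme. On probe set 1426260_a_at, Ugt1a read 13.56, 13.96, 13.60, 13.91 and 13.82 in the CMC mice at 28 days and 14.12, 14.04, 14.12, 14.11 and 13.08 in the PB mice. At 90 days it read 13.92, 14.03, 13.92, 13.84 and 14.00 under CMC and 14.16, 14.18, 13.53, 14.02 and 14.13 under PB. In the PB group of 28 days 4 arrays lay above every CMC array and replicate 5 lay below every one; at 90 days 3 lay above and replicate 3 below. The means were 13.77 ± 0.18 and 13.90 ± 0.46 (SD, n = 5) at 28 days and 13.95 ± 0.07 and 14.00 ± 0.27 at 90 days. Over both durations the difference was 0.09 ± 0.12 (SE), with an adjusted p of 0.821 by limma.

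The other Ugt1a probe sets gave the same picture. The set 1424783_a_at differed by 0.22 ± 0.19 at 28 days and by -0.00052 at 90 days, and 1426261_s_at by 0.18 ± 0.20 and 0.04. Each again had 4 PB arrays above all CMC arrays at 28 days, with replicate 5 below all of them. The 3 sets rose and fell together between mice of a group, with Pearson r of 0.94 to 0.99 over 20 arrays after the group means were removed. They share transcripts, so they count as 1 measurement.

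The size of the Ugt1a difference rested on the pair of arrays that stood apart. Without PB 28 days replicate 5, the 28-day differences of Ugt1a were 0.42 ± 0.15, 0.33 ± 0.12 and 0.42 ± 0.15 (unadjusted p of 0.0118, 0.00977 and 0.0107, adjusted p of 0.9999 by limma). Without both arrays, the differences over both durations were 0.27 ± 0.09, 0.25 ± 0.06 and 0.30 ± 0.08, and the smallest adjusted p was 0.188, for 1426260_a_at. With the first component as a covariate they were 0.25 ± 0.07, 0.23 ± 0.06 and 0.27 ± 0.07, with adjusted p between 0.147 and 0.244. The component is computed from the same arrays, so it can also hold part of the treatment effect. Both settings were planned with the low arrays known. Those arrays also had the lowest upper quartiles of all probe sets (6.62 and 6.81, where the next lowest was 6.87). What sets them apart was not tested.

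The UGT2B enzymes conjugate steroids, bile acids and many drugs. Ugt2b1 read 13.62, 13.72, 13.60, 13.46 and 13.40 under CMC at 28 days and 13.96, 13.95, 13.97, 13.93 and 13.43 under PB. The values at 90 days were 13.67, 13.14, 13.32, 13.76 and 14.08 under CMC and 13.89, 14.07, 13.77, 13.80 and 13.79 under PB. At 28 days 4 PB arrays lay above all CMC arrays; at 90 days none did, because CMC replicate 5 was the highest of all, and the CMC group was wide (13.59 ± 0.37) where the PB group was narrow (13.87 ± 0.12). The difference was 0.29 ± 0.14 at 28 days and 0.27 ± 0.14 at 90 days. Over both it was 0.28 ± 0.10, or 1.22-fold with a 95% interval from 1.05 to 1.41 (unadjusted p of 0.0122, adjusted p of 0.7498 by limma). It was 0.35 ± 0.10 without the pair of low arrays (adjusted p of 0.527).

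Ugt2b34 is a further hepatic UGT2B gene and was measured by 2 probe sets. On 1427960_at it read 11.58, 11.36, 11.89, 11.06 and 11.53 under CMC and 11.93, 11.96, 11.39, 11.54 and 12.13 under PB at 28 days. After 90 days it read 11.49, 10.95, 10.97, 11.35 and 11.62 under CMC and 11.67, 11.43, 11.99, 11.90 and 11.47 under PB. In each PB group 3 arrays lay above all CMC arrays and none lay below. The difference was 0.31 ± 0.18 at 28 days, 0.42 ± 0.18 at 90 days (unadjusted p of 0.0354) and 0.36 ± 0.13 over both (adjusted p of 0.7498 by limma), or 1.29-fold with a 95% interval from 1.06 to 1.55. The highest array of each PB group was again one that stood apart. Without them the differences of Ugt2b34 1427960_at were 0.22 ± 0.18, 0.34 ± 0.18 (unadjusted p of 0.0729) and 0.28 ± 0.13 (adjusted p of 0.990).

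The second Ugt2b34 probe set, 1427961_s_at, is of the kind whose probes can also match other transcripts. It read 12.69, 12.74, 12.72, 12.36 and 12.62 under CMC and 13.00, 12.97, 12.68, 12.75 and 12.62 under PB at 28 days, and 12.77, 12.47, 12.51, 12.76 and 12.85 against 12.90, 12.99, 12.76, 12.86 and 12.80 at 90 days. It differed by 0.18 ± 0.08 over both durations (unadjusted p of 0.0269, adjusted p of 0.754), and by 0.22 ± 0.08 without the pair of low arrays. The direction was that of the first set, but the sets ranked the mice differently: within groups their r was 0.50 over 20 arrays, while 1427961_s_at correlated with Ugt2b1 at 0.77 and 1427960_at with Ugt2b35 at 0.81. PB 28 days replicate 5 was the highest of its group on 1427960_at and the lowest on 1427961_s_at. How far each set measures Ugt2b34 alone was not tested.

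Ugt2b36 read 14.16, 13.91, 14.16, 14.09 and 13.75 under CMC and 14.02, 14.16, 14.00, 13.91 and 14.37 under PB at 28 days. At 90 days it read 13.77, 13.89, 13.79, 13.67 and 13.91 under CMC and 13.97, 13.78, 14.26, 14.12 and 13.95 under PB, so that 4 PB arrays lay above all CMC arrays. The difference was 0.08 ± 0.11 at 28 days, 0.21 ± 0.11 at 90 days and 0.14 ± 0.08 over both (adjusted p of 0.754 by limma). The highest array of each PB group was the one that stood apart, and without the pair the difference over both durations was 0.08 ± 0.07.

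The remaining UGT2 genes differed least. Ugt2b5, whose promoter stretch resembles that of Ugt2b36 most, ran from 13.76 to 14.05 under CMC and from 13.89 to 14.07 under PB at 28 days, and from 13.67 to 14.00 against 13.66 to 13.99 at 90 days. Its difference over both durations was 0.04 ± 0.06, with the narrowest interval of all members, from -0.09 to 0.16. Ugt2b35 had means of 12.83 ± 0.19 and 12.71 ± 0.23 at 28 days and of 12.68 ± 0.26 and 12.71 ± 0.25 at 90 days, a difference of -0.05 ± 0.11 over both. Ugt2a3, a UGT2A enzyme of liver and intestine, had means of 11.48 ± 0.31 and 11.55 ± 0.17 at 28 days and of 11.39 ± 0.16 and 11.51 ± 0.24 at 90 days, a difference of 0.09 ± 0.11. Groups overlapped for all 3 genes.

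Ugt3a2 belongs to the UGT3 family, whose enzymes use sugars other than glucuronic acid. It read 12.54, 12.59, 12.14, 12.53 and 12.51 under CMC and 12.59, 12.60, 12.65, 12.81 and 12.28 under PB at 28 days, and 12.53, 12.45, 12.48, 12.43 and 12.71 against 12.45, 12.41, 12.26, 12.44 and 12.55 at 90 days. The difference was 0.12 ± 0.11 at 28 days and -0.10 ± 0.11 at 90 days. These signs oppose each other, but the difference between durations was -0.22 ± 0.16, with an unadjusted p of 0.176 by limma. No member passed the test of the difference between durations, where 0 of all probe sets (0%) were called.

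**Figure D2:**
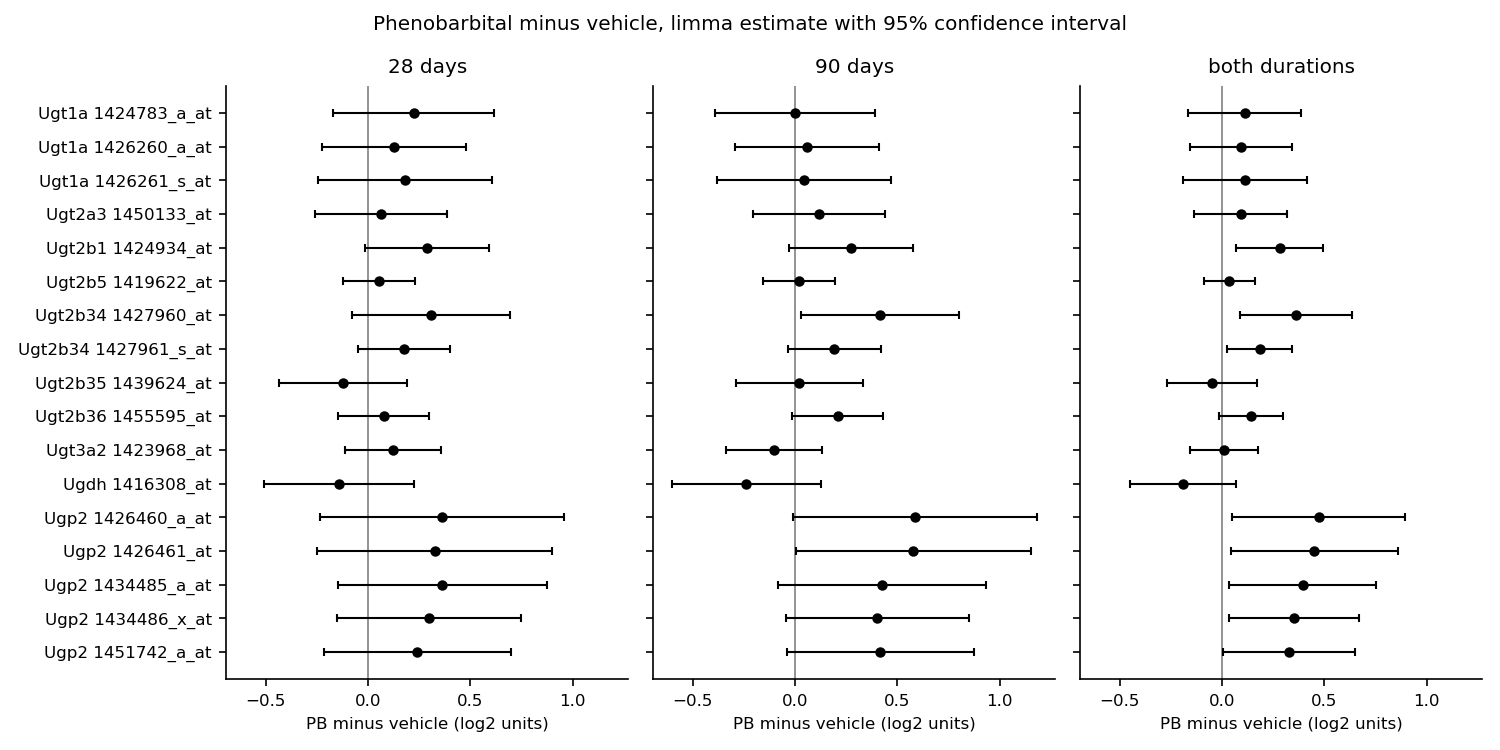
Difference between PB and CMC arrays in log2 units (horizontal axis) for each of 17 probe sets (vertical axis) at 28 days, at 90 days and over both; points are limma estimates and bars 95% confidence intervals. Over both durations the intervals of Ugt2b1, both Ugt2b34 and all 5 Ugp2 sets lie above 0 before adjustment, and Ugdh and Ugt2b35 have the only negative estimates.

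Ugp2 makes UDP-glucose, and its 5 probe sets gave differences of 0.24 to 0.36 at 28 days and 0.40 to 0.58 at 90 days. On 1426461_at it read 10.83, 10.12, 11.06, 11.06 and 9.41 under CMC and 10.94, 10.73, 10.70, 10.45 and 11.29 under PB at 28 days. The 90-day values were 10.34, 10.39, 10.75, 10.14 and 9.99 under CMC and 10.72, 10.62, 11.37, 11.23 and 10.55 under PB. At 28 days the CMC mice spread more widely than the PB mice (SD of 0.72 against 0.31), and 1 PB array lay above all of them; at 90 days 2 did. Without CMC replicate 5, the lowest array, the 28-day differences of the 5 sets were 0.031 to 0.16. The difference on this set was 0.58 ± 0.28 at 90 days (unadjusted p of 0.0488; 0.46 ± 0.29 with p of 0.125 without PB replicate 3) and 0.45 ± 0.19 over both durations (unadjusted p of 0.0308, adjusted p of 0.754 by limma).

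The other Ugp2 sets differed over both durations by 0.47 ± 0.20 (1426460_a_at), 0.39 ± 0.17 (1434485_a_at), 0.35 ± 0.15 (1434486_x_at) and 0.33 ± 0.15 (1451742_a_at). The 5 sets followed each other within groups with r from 0.94 to 0.99 over 20 arrays. The highest Ugp2 value of each PB group came from the arrays that stood apart, on 1434486_x_at at 90 days level with replicate 4 (13.22 on both). Without them the 5 differences over both durations were 0.22 to 0.33, with unadjusted p between 0.101 and 0.160.

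Ugdh, the enzyme that makes UDP-glucuronate, had the lowest difference of all members. It read 11.50, 11.85, 11.64, 11.41 and 11.98 under CMC and 11.74, 11.97, 11.76, 11.38 and 10.81 under PB at 28 days. At 90 days it read 12.15, 11.96, 12.39, 12.19 and 12.12 under CMC and 12.08, 11.98, 11.74, 11.98 and 11.85 under PB. No PB array lay above all CMC arrays at either time, and 2 lay below at each. The difference was -0.14 ± 0.18 at 28 days, -0.24 ± 0.18 at 90 days and -0.19 ± 0.12 over both (unadjusted p of 0.142, adjusted p of 0.754 by limma). Without PB 28 days replicate 5, the lowest array, the 28-day difference was 0.04 ± 0.14 and that over both durations -0.099.

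With all arrays kept, Ugdh differed more between durations than between treatments. From 28 to 90 days the CMC mean went from 11.68 ± 0.24 to 12.16 ± 0.16, a difference of 0.49 ± 0.18 (unadjusted p of 0.0115, adjusted p of 0.672 by limma). The PB mean went from 11.53 ± 0.46 to 11.93 ± 0.13, a difference of 0.39 ± 0.18 (adjusted p of 0.982 by limma). Without PB 28 days replicate 5 this PB difference was 0.21. Ugdh was the only member with an unadjusted p under 0.05 in the CMC comparison, where 5.56% of all probe sets were. After adjustment 0 probe sets (0%) were called between the CMC groups and 1 (0.0028%) between the PB groups, and it was not a member. Duration goes with the age of the mice and any separate handling of the groups, which cannot be told apart. Ugdh also followed the first component (r of 0.68 over 20 arrays), and the CMC groups differed on it. CMC 28 days replicates 1 and 3 scored -56.7 and -53.0, and the rest of that group 5.6 to 33.1. The CMC arrays of 90 days scored 11.6 to 58.5.

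**Figure D3:**
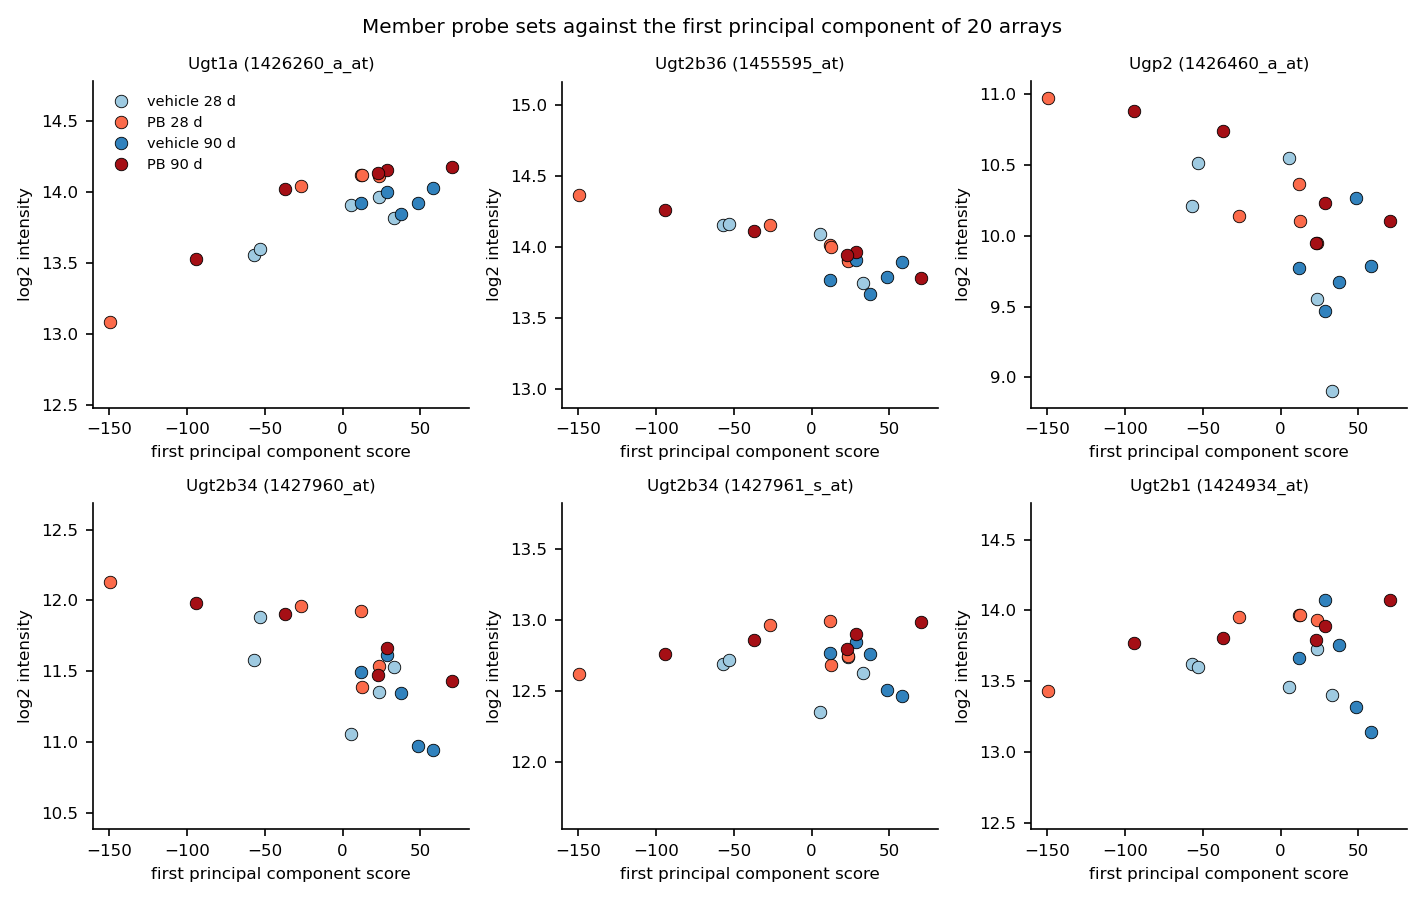
Log2 intensity (vertical axis) of 6 probe sets against the array's score on the first principal component of all probe sets (horizontal axis), with 20 arrays coloured by group. The arrays at -149.4 and -94.4 are lowest for Ugt1a and highest for Ugt2b36 and Ugp2, whereas Ugt2b1 and Ugt2b34 1427961_s_at show little slope.

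Within the groups, and with all 20 arrays kept, the members fell into sets that moved in opposite ways from mouse to mouse. With the group means removed, the r with the first component over 20 arrays was 0.88 to 0.91 for Ugt1a, 0.63 for Ugt3a2 and 0.61 for Ugdh. It was -0.86 for Ugt2b36, -0.69 for Ugt2a3, -0.69 for Ugt2b34 1427960_at, -0.68 for Ugt2b5, -0.60 for Ugt2b35 and -0.73 to -0.63 for Ugp2. Ugt2b1 (0.31) and Ugt2b34 1427961_s_at (0.18) were near neither end. These correlations describe 20 arrays that also share this component, and they carry no test. How far they and the correlations between members rest on the pair of arrays that stood apart was not tested.

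Between members, Ugt1a went with Ugt3a2 (r of 0.72 to 0.83) and Ugdh (0.61 to 0.68) and against Ugp2 (-0.71 to -0.50) and Ugt2b36 (-0.71 to -0.69). Ugp2 went with Ugt2a3 (0.84 to 0.88) and Ugt2b36 (0.78 to 0.84). The enzymes of consecutive steps, Ugp2 and Ugdh, went opposite ways (-0.61 to -0.47). Neighbours on the chromosome did not form 1 set: Ugt2b5 correlated with Ugt2b35 at 0.71, with Ugt2b34 1427960_at at 0.69 and with Ugt2b36 at 0.68, but Ugt2b1, which lies between Ugt2b34 and Ugt2b35, correlated with Ugt2b35 at 0.29 and with the Ugt2b34 sets at 0.77 (1427961_s_at) and 0.18 (1427960_at).

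**Figure D4:**
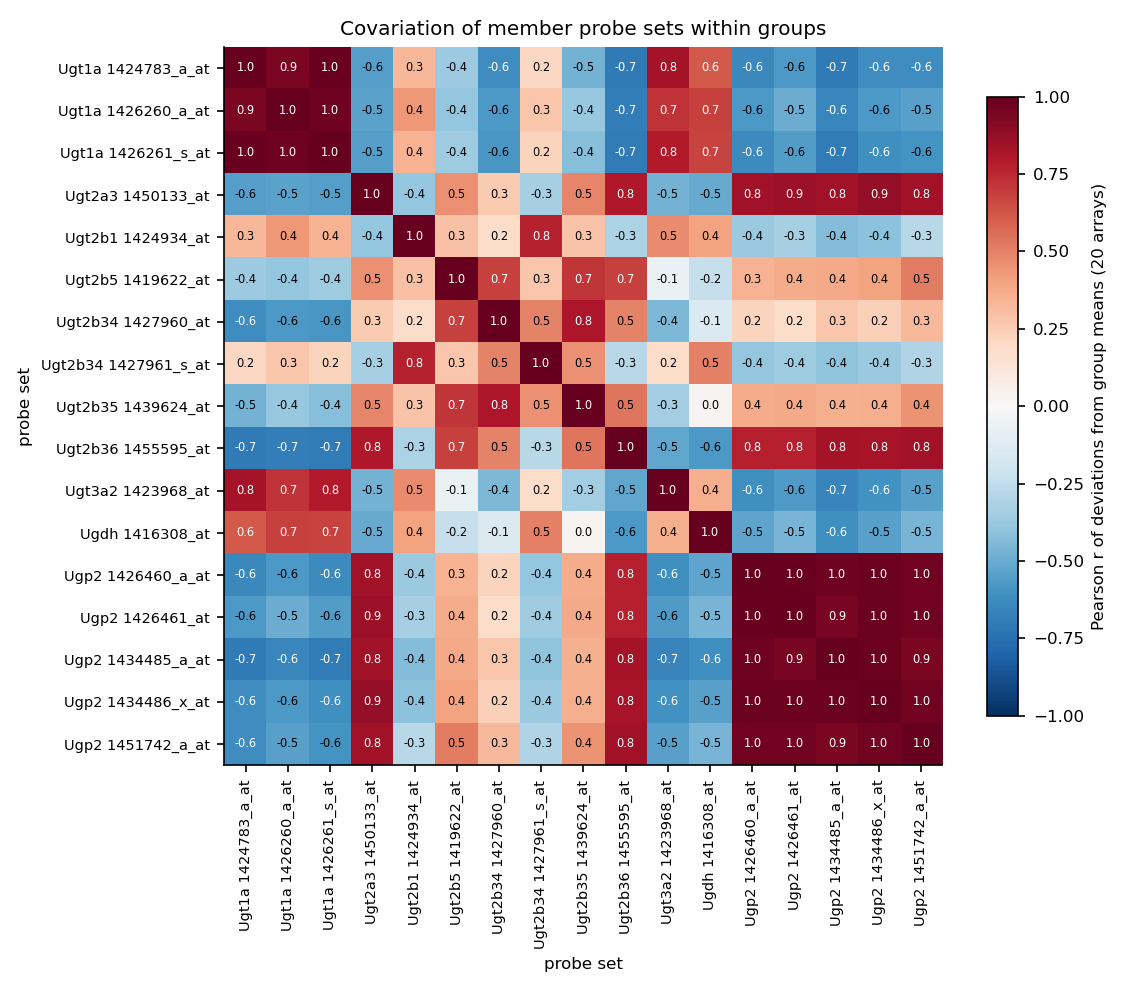
Pearson r between each pair of 17 probe sets (both axes) over 20 arrays after the mean of each group was removed, from -1 (blue) to 1 (red). The 3 Ugt1a sets and the 5 Ugp2 sets form 2 red blocks that are blue against each other, and Ugt2a3 and Ugt2b36 go with Ugp2.

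For Ugt2b34 1427960_at, the member with the smallest p over both durations, the genes with the most similar pattern over 20 arrays were Hsd17b1 (r = 0.90), Atp6v0e (0.87), Klk7 (0.85), Tenm2 (0.84) and Uts2 (0.84), out of 28903 candidate probe sets. With the group means removed their r was 0.90, 0.84, 0.76, 0.81 and 0.85. None was called, and their own r with the first component ran from -0.83 to -0.59, so the likeness includes that component.

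**Figure D5:**
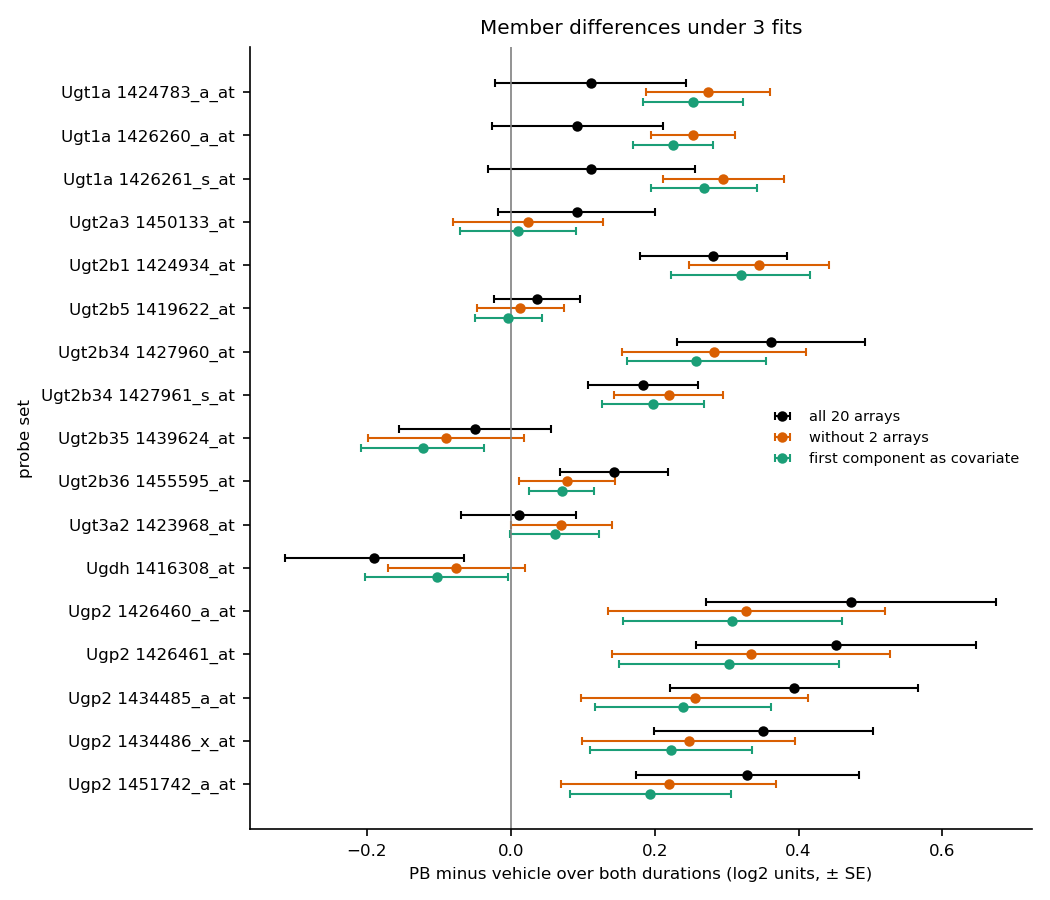
Difference between PB and CMC over both durations in log2 units (horizontal axis, ± SE) for each of 17 probe sets (vertical axis), with all 20 arrays, without the 2 arrays that stand apart, and with the first component as a covariate. The Ugt1a estimates move from about 0.1 to between 0.23 and 0.30, those of Ugp2 move toward 0, and those of Ugt2b1 and Ugt2b34 stay above 0 in each fit.

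The rest of the pathway was read from 6 lists, each gene by its brightest probe set. Of the other UGT genes 4 of 15 could be tested, of which 2 were higher over both durations and 0 were called (list median 0.03). Ugt2b37, which shares the spaced promoter pair, had the smallest p, with a difference of 0.53 ± 0.35 (adjusted p of 0.754 by limma) and SDs of 0.66 to 1.06 within groups. Ugt2b38, which holds the pair too, differed by -0.27 ± 0.52. Of 17 genes of UDP-glucose and glycogen metabolism 6 were above 0 and 0 were called (median -0.12). The smallest p belonged to Uap1, which makes UDP-N-acetylglucosamine from the same UTP pool, with -0.48 ± 0.17 (unadjusted p of 0.0103, adjusted p of 0.738).

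A list of 6 genes around UDP-glucuronate held the decarboxylase Uxs1, carriers of nucleotide sugars (Slc35a3, Slc35b1, Slc35d1 and Slc35d2) and the glucose 6-phosphate translocase Slc37a4, not all of which handle UDP-glucuronate. Of these, 3 were above 0 and 0 were called (median -0.063), with the smallest p for Slc35b1 (-0.40 ± 0.23). Of 8 genes of glucuronide cleavage and glucuronate breakdown 1 was above 0 and 0 were called (median -0.098). Rgn, the gluconolactonase of ascorbate synthesis, had the smallest p there (-0.10 ± 0.05, unadjusted p of 0.0834). Of 11 transcription factors 3 were above 0 and 0 were called (median -0.18). Nfe2l2, the regulator of the oxidative stress response, differed by -0.38 ± 0.17 (adjusted p of 0.754) and Nr1i3 itself by 0.06 ± 0.19.

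The 1 called gene of these lists was a transporter. Of 8 transporters listed, not all of which are carriers of glucuronides (Abcb1a is among them), 4 were above 0 over both durations (median 0.015). Abcc4, an efflux pump of the sinusoidal membrane that carries conjugates back to the blood, rose by 1.26 ± 0.19 (adjusted p of 0.00232 by limma). Its means were 5.31 ± 0.36 and 6.33 ± 0.29 at 28 days and 5.74 ± 0.42 and 7.24 ± 0.65 at 90 days, a difference of 1.02 ± 0.27 (adjusted p of 0.910) and of 1.498 ± 0.267 (adjusted p of 0.0279). The call at 90 days was lost when only the 90-day groups were fitted (adjusted p of 0.296) and on removal of any 1 of 8 of the 10 arrays (adjusted p of 0.0798 to 0.136); it held without CMC replicate 1 or PB replicate 3. Abcc3, a related pump, differed by 0.46 ± 0.29, and Abcc2, the pump of the bile canaliculus, by -0.33 ± 0.40. Abcg2, a further canalicular pump, differed by -0.27 ± 0.12 (unadjusted p of 0.0399, adjusted p of 0.754).

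Other cell types were checked with marker lists, since whole lobe tissue cannot separate fewer cells of a type from less RNA per cell. Of 4 neutrophil markers measured, 2 were higher over both durations and S100a8 was called (5.67 ± 0.80, adjusted p of 0.00124 by limma). The mean of the list above the array's lower quartile ran from 1.39 to 2.05 under CMC and 2.21 to 3.41 under PB at 28 days, and from 0.87 to 1.32 against 1.12 to 3.30 at 90 days. S100a8 carried this shift: over both durations S100a9 differed by -0.08 ± 0.23, Camp by -0.01 ± 0.09 and Ngp by 0.19 ± 0.14. The part of these cells in the member values was not tested. No marker of the other 7 lists was called in these comparisons. Of 5 macrophage markers 5 were above 0 at 28 days and 1 at 90 days, where Cd5l differed by -0.59 ± 0.28 (unadjusted p of 0.0496). Of 5 stellate cell and fibroblast markers 2 had an unadjusted p under 0.05 at 90 days, Col3a1 with 0.88 ± 0.25 and Col1a1 with 0.28 ± 0.12. The mean of the 5 hepatocyte markers per array ran from 9.14 to 10.46.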

How the data were processed

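The deposited table held log2 intensities that the authors made with RMA, per the submitters' processing notes. This method subtracts background, brings the arrays to a common distribution and summarises the probes of each probe set. Neither its version nor a genome build is given in the sources used here. Symbols came from the platform annotation of 2016, in which 34945 probe sets had 1 symbol, 932 several and 9160 none. The precision is limited by the number of arrays. The members and lists were chosen with earlier results of these data known.

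A probe set was tested when it exceeded its array's 25th percentile (3.96 to 4.26) on at least 5 arrays. The limma model (version 3.58.1, R 4.3.3) had a mean for each group over 20 arrays, a variance prior that follows intensity, and 16 residual degrees of freedom. Tests were two-sided, and the script was tested on simulated data. All members were named; of each list, the called genes (at most 3) or else the gene with the smallest p over both durations. Abcc2, Abcc3, Abcg2, Ugt2b38, Cyp3a11 and single markers were added after their values were seen. Replicate numbers did not pair the mice: of 30 pairs of arrays with the same number, 9 had deviations correlated above 0.1 (median -0.11). Promoter sequences came from RefSeq, where 9 of 10 members matched. Figures were drawn with matplotlib 3.10.9. The alternatives changed the filter, the probe sets of a gene, the prior, the arrays, the weights, the normalization and the covariates.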

Additional observations from a re-analysis of the deposited data

Results flagged for a closer look

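In 9 of 68 groups of 5 arrays 1 array lay far from the other 4. Chance flags about 1 in 20 groups, but the 68 are not independent, since probe sets of 1 gene move together. Of the 9 flags, 6 concern Ugt1a: the same arrays on each of its 3 probe sets. On 1424783_a_at, PB 28 days replicate 5 read 12.37 (nearest other 13.29) and PB 90 days replicate 3 read 12.67 (13.24). On 1426260_a_at the same arrays read 13.08 (14.04) and 13.53 (14.02), and on 1426261_s_at 12.06 (13.19) and 12.58 (13.18). For Ugt2b1, PB 28 days replicate 5 read 13.43 (13.93). These 7 values come from the arrays at the low end of the first component. For Ugt3a2, CMC 28 days replicate 3 read 12.14 (12.51). For Ugp2 on 1451742_a_at, CMC 90 days replicate 3 was high at 12.81 (12.48).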

How the results depend on the processing

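No member was called under any alternative; the lowest adjusted p of a member was 0.594 at 28 days, 0.489 at 90 days and 0.147 over both durations. The replicate block also left 0 members called. Of 589 member values under other settings 16 changed sign, and of 700 after removal of 1 array 20 did; the cause was not tested. At 90 days Ugt2b5 was -0.012 with array weights, -0.042 with cyclic loess, -0.039 with the first component as a covariate (-0.0036 over both durations) and -0.017 without the 2 low arrays. Ugt2b35 was -0.060, -0.013, -0.081 and -0.042 under the same settings, and 0.021 over both durations with centring on the 75th percentile. Ugt1a 1424783_a_at was 0.099 with array weights, 0.093 with centring, 0.20 with the covariate and 0.13 without the 2 arrays, and Ugt1a 1426260_a_at was -0.0022 with cyclic loess. Ugdh at 28 days was 0.038 without the 2 arrays. Removing 1 array at a time gave -0.25 to 0.038 for Ugdh and -0.058 to 0.13 for Ugt2a3 at 28 days. At 90 days it gave -0.061 to 0.13 and -0.013 to 0.17 for Ugt1a 1424783_a_at and 1426261_s_at, -0.021 to 0.066 for Ugt2b5 and -0.053 to 0.11 for Ugt2b35. For Ugt3a2 over both durations it gave -0.030 to 0.049.

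Counts over all probe sets moved more: 6 (each duration alone) to 23 (array weights) at 28 days, up to 38 at 90 days and 70 over both durations (covariate). Centring moved the 90-day median of all probe sets from 0.020 to 0.11 and raised the share above 0 from 53.9% to 69.4%, with 15 members above 0. No fit of only the groups compared was possible for effects over both durations. With 5 mice a group, the standard error of a member at 1 duration ran from 0.085 (Ugt2b5) to 0.29 (Ugp2 1426460_a_at).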
